A study of Mus musculus with 6 samples.

Results

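Gene deserts are long stretches of chromosome that hold no protein-coding gene. Here they were the autosomal windows whose midpoint lay over 500 kb from every protein-coding gene of the mouse RefSeq annotation, build mm10, with neighbouring windows joined. The rule selected 18602 of 224054 autosomal windows (8.30%), out of 237602 windows in the series. They formed 247 deserts on 19 chromosomes and covered 201.5 Mb. A desert is named here by the protein-coding gene on each side. Since each edge lies 500 kb from its flanking gene, a desert of 10.0 kb already stands for a gap between genes of about a megabase. The spans ran from 10.0 kb to 3539.59 kb with a median of 494.1 kb, and 71 deserts were longer than 1 Mb.

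DNA is copied in a fixed order during S phase, with gene-rich, open chromatin first and gene-poor chromatin, much of it held at the nuclear lamina, last. A growing culture therefore holds more copies of early than of late sequence, and its sequencing depth along the chromosomes can be read as a timing profile. Gene deserts are mostly known as late replicating DNA, but some border developmental regulators and hold their distant enhancers, and others hold long non-coding RNA genes, microRNA genes or the variable segments of antigen receptors.

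The series held 6 whole-genome libraries of HoxB8-immortalised mouse myeloid cell lines that had been selected in GM-CSF, a growth factor for myeloid progenitors. HoxB8 immortalisation holds such progenitors in a dividing state. There were 3 WT samples and 3 Recql4 -/- Klhdc3 -/- samples, so the mutant lacked both Recql4, a RecQ helicase that acts when replication starts, and Klhdc3, a substrate receptor of a cullin ubiquitin ligase. All 6 came from proliferating cultures with a division time of 15 to 18 hours and more than 25% of cells in S phase, sequenced in pairs of 150-base reads towards 30-fold coverage. The labels do not say whether samples of a genotype were separate lines or clones. The question of the series was whether timing differed between the genotypes. The 6 deposited value columns carried no sample names, so they are given as profiles A to F, without genotype, and none is a known replicate of another. No comparison of genotypes was made, and no value below has a test. The files hold DNA copy levels and no expression, so the cell type was not checked against markers.

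Each window had a smoothed timing score, scaled so that the autosomes of a profile had mean 0 and SD 1, with higher values for earlier replication, and a raw copy level, which lay near 2 on autosomes. A score of a desert is the mean over its windows. Chromosome 19, with 5 deserts, had no value, and chromosome 12, with 17 deserts, had none in profiles D and E. Counts over deserts therefore used the 196 with at least 10 windows valued in every profile. The other 51 were those 22 and 29 short deserts of 1 to 9 windows, of which 28 had values and 23 scored below 0 in each profile. Chromosomes 3, 4, 6, 12, 14 and 17 carried large stretches at a shifted copy level in some of the profiles, as known from earlier results of these data. The other 12 valued chromosomes, with 131 of the 196 deserts, are called the chromosomes without shifts.

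Although the rule leaves out protein-coding genes, deserts held annotated genes of other kinds. Sequences from the earliest and the latest desert are shown first. The earliest desert, between Tmpo and Nedd1 on chromosome 10, contained the genes of miR-135a and miR-1251 beside Rmst, a long non-coding RNA of the developing brain. The latest, between Slc39a10 and Tmeff2 on chromosome 1, contained the gene of miR-6350. The mature microRNAs follow, 5′ to 3′, with the seed (bases 2 to 8), which pairs with targets, in capitals; they and the promoters below are RefSeq sequences of build GRCm38.p6.
mmu-miR-135a-5p: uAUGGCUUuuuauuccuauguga
mmu-miR-135a-2-3p: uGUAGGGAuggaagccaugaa
mmu-miR-1251-5p: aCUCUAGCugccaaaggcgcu
mmu-miR-1251-3p: cGCUUUGCucagccaguguag
mmu-miR-6350: uAGCAGGUgcauuauaaauau
The miR-135a gene Mir135a-2 scored between 0.52 and 0.78 in the 6 profiles, whereas Mir6350 scored between -1.54 and -1.46. The first therefore lay on the early side and the second on the late side in each profile. Mir6350, near the edge of its desert, was less late than that desert as a whole, at -2.13 to -2.02. It lay near the mean of all desert windows, -1.46 to -1.29, and does not stand for the latest sequence.

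A further 8 of the 21 microRNA genes found in deserts sat in 1 desert of 234.5 kb between Gm51483 and Ndn on chromosome 7 (chr7:61609865-61844371), beside the imprinted gene Ndn. They belong to the miR-344 family, and 4 of their 5′ arms shared the seed GUCAGGC, shown in capitals.
mmu-miR-344b-5p: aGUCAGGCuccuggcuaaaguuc
mmu-miR-344c-5p: aGUCAGGCugcuggcuagaguac
mmu-miR-344d-1-5p: aGUCAGGCugcuggcuauacacca
mmu-miR-344d-3-5p: aGUCAGGCuagugguuauacucc
Their desert scored -1.50, -1.42, -1.36, -1.53, -1.49 and -1.49 in profiles A to F, late in each. It was chosen for these sequences after its values were seen, as was the 182.2 kb desert between Usp25 and Cxadr on chromosome 16, which holds Mir125b-2, the gene of a microRNA known to act in blood cell formation.
mmu-miR-125b-5p: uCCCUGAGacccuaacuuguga
That desert scored between -0.87 and -0.54, nearer to the genome mean than most.

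The promoters of 3 long non-coding RNA genes follow, from an early, a late and a variable desert. They run from 250 bases before to 50 after the start. CG dinucleotides, the sites of DNA methylation, are in capitals. Gm31592 (chr10:91888579-91888878, plus strand) lies in the earliest desert, C230029F24Rik (chr1:49244366-49244665, plus strand) in the latest, and 6030442E23Rik (chr7:71216799-71217098, plus strand) in the desert between Gm44812 and Mctp2, whose timing varied most on the chromosomes without shifts.
Gm31592: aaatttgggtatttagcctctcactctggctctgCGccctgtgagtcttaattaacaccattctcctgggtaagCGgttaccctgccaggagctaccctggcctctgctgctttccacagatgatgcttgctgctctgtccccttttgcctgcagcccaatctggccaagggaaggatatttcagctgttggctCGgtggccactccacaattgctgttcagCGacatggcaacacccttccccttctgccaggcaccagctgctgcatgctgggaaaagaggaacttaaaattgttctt
C230029F24Rik: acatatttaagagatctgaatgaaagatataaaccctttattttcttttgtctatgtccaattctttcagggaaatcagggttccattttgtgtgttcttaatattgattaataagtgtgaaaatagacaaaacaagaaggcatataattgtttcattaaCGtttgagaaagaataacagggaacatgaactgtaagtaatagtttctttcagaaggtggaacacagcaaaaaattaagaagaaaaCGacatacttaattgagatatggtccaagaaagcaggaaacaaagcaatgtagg
6030442E23Rik: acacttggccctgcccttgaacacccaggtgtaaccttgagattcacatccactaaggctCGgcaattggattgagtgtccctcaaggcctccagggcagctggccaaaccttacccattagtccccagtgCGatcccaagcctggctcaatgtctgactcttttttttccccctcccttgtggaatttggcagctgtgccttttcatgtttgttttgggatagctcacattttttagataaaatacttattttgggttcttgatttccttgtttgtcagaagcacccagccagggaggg
The window at the first scored between 0.58 and 0.84, that at the second between -2.20 and -2.10, and that at the third between -1.44 and -0.25. They held 4, 2 and 2 CG dinucleotides, and the GC content was 52.7%, 31.0% and 48.7%.

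Few CG dinucleotides were usual in desert promoters, but these 3 were not typical in every respect. The GC content of Gm31592 and 6030442E23Rik lay above the upper quartile of desert promoters, 47.0%. Gm31592, with 4 CG, matched the median of long non-coding promoters elsewhere. The promoters used were of protein-coding or long non-coding RNA genes, and the rule keeps the first out of deserts. The 228 RefSeq promoters in deserts (203 genes) were therefore all of long non-coding RNA genes. They held a median of 2 CG dinucleotides and a GC content of 42.3%, compared with 4 and 48.7% for the 11083 promoters of long non-coding RNA genes elsewhere on autosomes. No CG was present in 18.9% of the desert promoters and in 6.50% of the others. TATAAA, the core of the TATA box, occurred on either strand in 27.6% of desert promoters, in 15.0% of long non-coding promoters elsewhere and in 13.6% of all 31396 autosomal promoters. GGGCGG, the core of the GC box, occurred on either strand in 5.26%, 16.6% and 36.0% of the same sets. These are matches of letters in AT-rich or GC-rich sequence, and the part of base composition in them was not tested. Only 6 desert promoters, in 5 deserts, held 10 or more CG, and the windows at them had a median score of -1.70, against -1.30 at the other 222.

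Deserts replicated late in each of the 6 profiles. The mean score of desert windows was -1.43, -1.45, -1.43, -1.46, -1.45 and -1.29 in profiles A to F, while that of the other autosomal windows was between 0.12 and 0.13. Profile F was the least late. The difference between desert and other windows had a median of -1.57 and ran from -1.60 to -1.41, so its spread over the profiles was small beside its size. On the chromosomes without shifts the mean desert score was -1.38 at the median and between -1.42 and -1.34, and profile F no longer stood apart at -1.37.

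The copy level told the same in units of DNA. Desert windows had a mean raw level of 1.76, 1.78, 1.81, 1.76, 1.74 and 1.77 in profiles A to F, and the other autosomal windows had 2.00, 2.00, 2.00, 1.98, 1.98 and 1.99. A desert window was thus present at 87.9% to 90.5% of the level of other windows, with a median of 88.8%. The gap was smallest in profile C, at -0.190, and largest in profile E, at -0.240. The labels do not give the share of S-phase cells in each library. Deserts filled 45.3% to 49.5% of the latest 10% of autosomal windows, although they made up 8.30% of all. Of the earliest 10% they held at most 0.996%, in profile F.

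Lateness increased with distance from the nearest gene, well before and well beyond the limit that defined a desert. Windows inside a gene had a mean score of 0.36 (median of the profiles), those 50 to 100 kb away -0.04, and those 400 to 500 kb away -0.996. Inside deserts the score was -1.24 at 500 to 750 kb (8216 windows), -1.50 at 750 to 1000 kb, -1.62 at 1000 to 1500 kb and -1.76 at 1500 to 2500 kb (1574 windows in 27 deserts). The order of these 4 classes was the same in each profile. Windows 490 to 500 kb from a gene had a mean score of -1.07 (median of the profiles), and windows 500 to 510 kb away had -1.08. These are neighbouring windows of a smoothed score, so a jump at the limit could hardly have appeared. The farthest window lay 2269.24 kb from any protein-coding gene. The plot of score by distance shows this course.

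**Figure D1:**
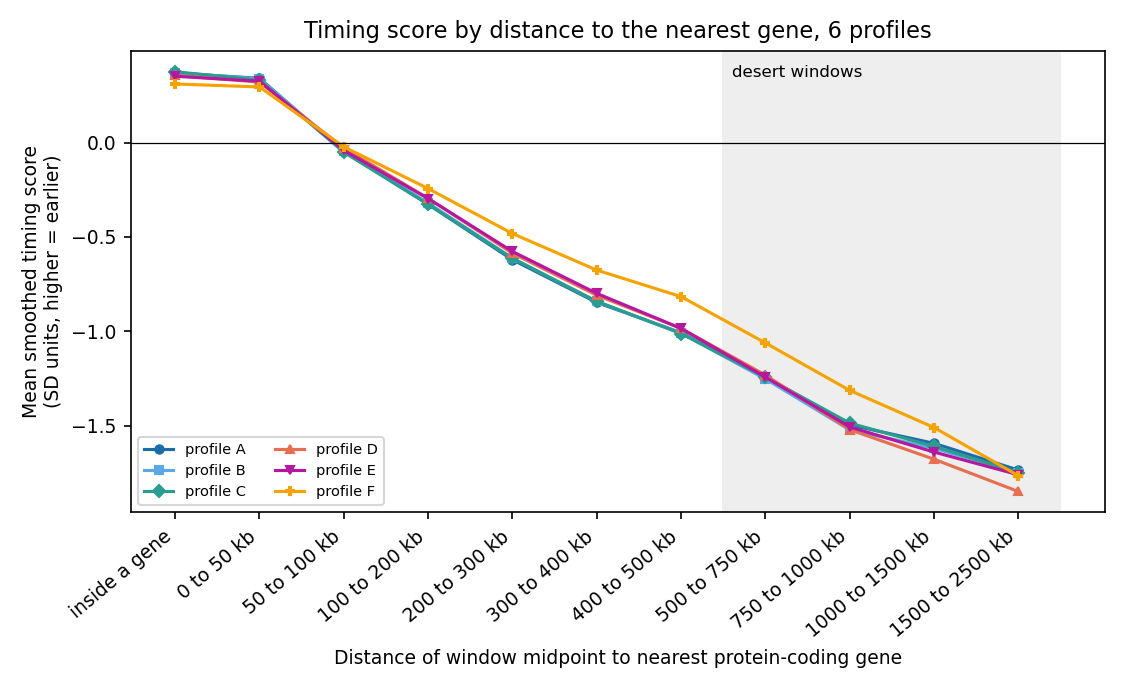
Mean smoothed timing score (SD units, higher is earlier) of autosomal windows in classes of distance from the nearest protein-coding gene, 1 line for each of profiles A to F; shading marks the desert windows. The lines fell from 0.36 (median) inside genes to -1.76 at 1500 to 2500 kb, and profile F lay above the others from 100 to 1500 kb.

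Single deserts followed the mean with few exceptions. Of the 196 deserts, 177 (90.3%) scored below 0 in every profile, where 40.5% of all autosomal 100-kb bins did so. On the chromosomes without shifts it was 123 of 131 (93.9%, with 38.8% of bins). A score below -1 in every profile was found for 114 deserts (58.2%), where 16.2% of bins had one, and for 79 of 131 on the chromosomes without shifts (60.3%, with 14.9% of bins). Only 3 deserts scored above 0 in every profile (1.53%), compared with 46.5% of bins. On the chromosomes without shifts it was 2 of 131 (1.53%, with 49.6% of bins). The remaining 16 were below 0 in some profiles and above in others. A desert is usually longer than a bin, so the shares of bins are a background and not a matched set.

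Longer deserts were later. The 38 deserts of up to 250 kb had a median score of -0.95, the 46 of 250 to 500 kb -1.09, the 48 of 500 to 1000 kb -1.39, the 37 of 1 to 2 Mb -1.66 and the 27 above 2 Mb -1.60. The last pair of classes overlapped widely. By profile, the mean of the deserts of 1 to 2 Mb lay between -1.58 and -1.50 and that of the deserts above 2 Mb between -1.67 and -1.58. Late in every profile were 28 of the shortest class and 27 of 27 of the longest. Across the 196 deserts, Spearman's rho between span and median score was -0.54 (-0.54 to -0.48 by profile), and it was -0.51 over the 131 on chromosomes without shifts. With a limit of 1000 kb in place of 500 kb rho was -0.084, and measured from any annotated gene it was -0.10 over 9 deserts, so the relation depends on the definition. These points share the same 6 profiles, and a long desert also holds windows farther from genes, which gave the same rho of -0.54 for the largest distance to a gene. The plot of score by span shows the trend and its spread.

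**Figure D2:**
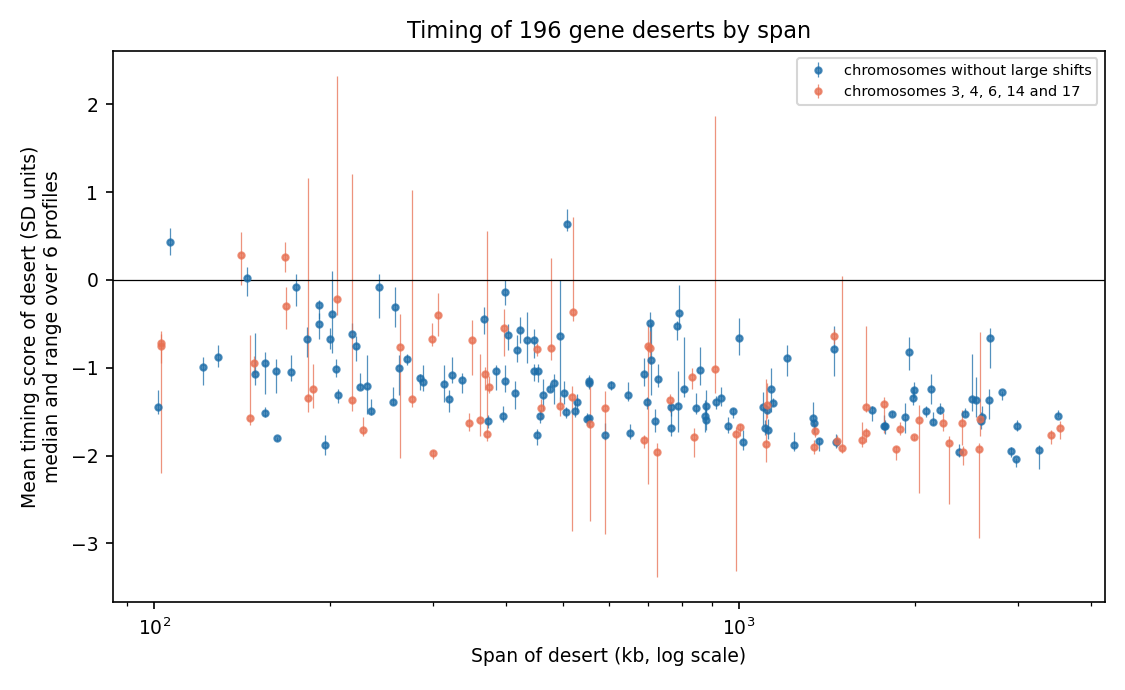
Median timing score (SD units) of each of 196 deserts against its span in kb on a log axis; points are medians over 6 profiles and bars run from the lowest to the highest profile, coloured by whether the chromosome carried large shifts. Most points lie below 0 and sink with span, and nearly all long bars belong to chromosomes 3, 4, 14 and 17.

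Of the 8 longest deserts, 6 had a gene of neuronal adhesion or guidance on at least 1 side, as did 29.1% of all 247. The longest, 3539.59 kb between the protocadherin genes Pcdh20 and Pcdh9 on chromosome 14 (chr14:88968692-92508278), scored -1.60, -1.61, -1.66, -1.81, -1.73 and -1.71 in profiles A to F. The 6 values lay close together over its 332 windows. The desert between Celf4, an RNA-binding protein of neurons, and Pik3c3, the lipid kinase of autophagy, on chromosome 18 (3510.68 kb) scored between -1.56 and -1.48. It held 13 long non-coding RNA genes, the most of any desert, and was nonetheless late throughout. The desert between Olfm4 and Pcdh17 on chromosome 14 (3425.65 kb) scored between -1.87 and -1.71. Between Cntnap5b, a contactin-associated protein, and the cadherin gene Cdh20 on chromosome 1 (3266.46 kb) the scores ran from -2.15 to -1.88. Tenm3, a teneurin that guides axons, and Aga on chromosome 8 bounded 2991.64 kb with scores between -1.72 and -1.59. The last, between Dsel and Cntnap5a on chromosome 1 (2819.51 kb), was the least late of the 8, at -1.37 to -1.26, and its timing was uneven: in 5 equal parts of it, the leftmost scored -1.80 and the rightmost -0.55 (medians over profiles).

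The other 2 of the longest were also among the 6 latest. The latest of all, between the zinc transporter gene Slc39a10 and Tmeff2 (chr1:47420996-50400397), scored -2.04, -2.04, -2.02, -2.13, -2.02 and -2.05 in profiles A to F. Its raw level was 1.67, 1.70, 1.74, 1.67, 1.65 and 1.65. No profile departed from this late state. Between Lrrc4c, a synaptic ligand of netrin-G1, and Iftap on chromosome 2 the scores lay between -2.01 and -1.91. Between Hace1 and the kainate receptor gene Grik2 on chromosome 10 they lay between -2.02 and -1.87, and between 4931417E11Rik and Ctnna2, a neuronal catenin, on chromosome 6 between -2.10 and -1.89. Between Ythdf3, a reader of methylated RNA, and Cypt12 on chromosome 3 the scores were -1.93, -1.96, -1.96, -2.36, -3.39 and -1.86. Profiles D and E were lower there, on a chromosome with shifts, and the other 4 were alike.

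Early replication of a desert was rare. The earliest, between Tmpo, which encodes lamina-associated polypeptide 2, and Nedd1, a centrosomal protein (chr10:91677609-92185152), spanned 507.5 kb. It scored 0.69, 0.71, 0.59, 0.57, 0.81 and 0.56 in profiles A to F, with raw levels of 2.11, 2.10, 2.06, 2.04, 2.10 and 2.08. Each profile therefore placed it earlier than the genome mean. Its flanking genes were early too, with median scores of 1.09 at Tmpo and 0.44 at Nedd1. Rmst itself scored between 0.48 and 0.74, and Mir1251 between 0.47 and 0.72.

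The second earliest lay between Nr5a2, an orphan nuclear receptor, and Ptprc, which encodes the leukocyte phosphatase CD45 (chr1:137458561-137564838, 106.3 kb). Its scores were 0.45, 0.44, 0.39, 0.28, 0.42 and 0.59. They lay between the timing of its flanks, since Ptprc scored 1.33 and Nr5a2 -0.30. Tusc1 and Caap1 on chromosome 4 bounded the third desert that was above 0 in every profile, at 0.23, 0.17, 0.09, 0.44, 0.43 and 0.31 in 167.7 kb. Its raw level was between 1.89 and 1.94, and on the raw level rescaled like the score its median was -0.30, so its early call did not hold there. The desert between 4930519L02Rik and Lmo4, a LIM-only cofactor of transcription, on chromosome 3 scored 0.45, 0.54, 0.22, -0.05, 0.16 and 0.34. Only profile D was below 0. The last of the 6 earliest straddled the mean: Jag1, a Notch ligand, and Btbd3 on chromosome 2 bounded a desert at -0.19 to 0.15 (median 0.02, and -0.08 on the rescaled raw level), and Camk1g and Plxna2, a semaphorin receptor, on chromosome 1 bounded one at -0.43 to 0.06. The plot of named deserts shows the values of each profile.

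**Figure D3:**
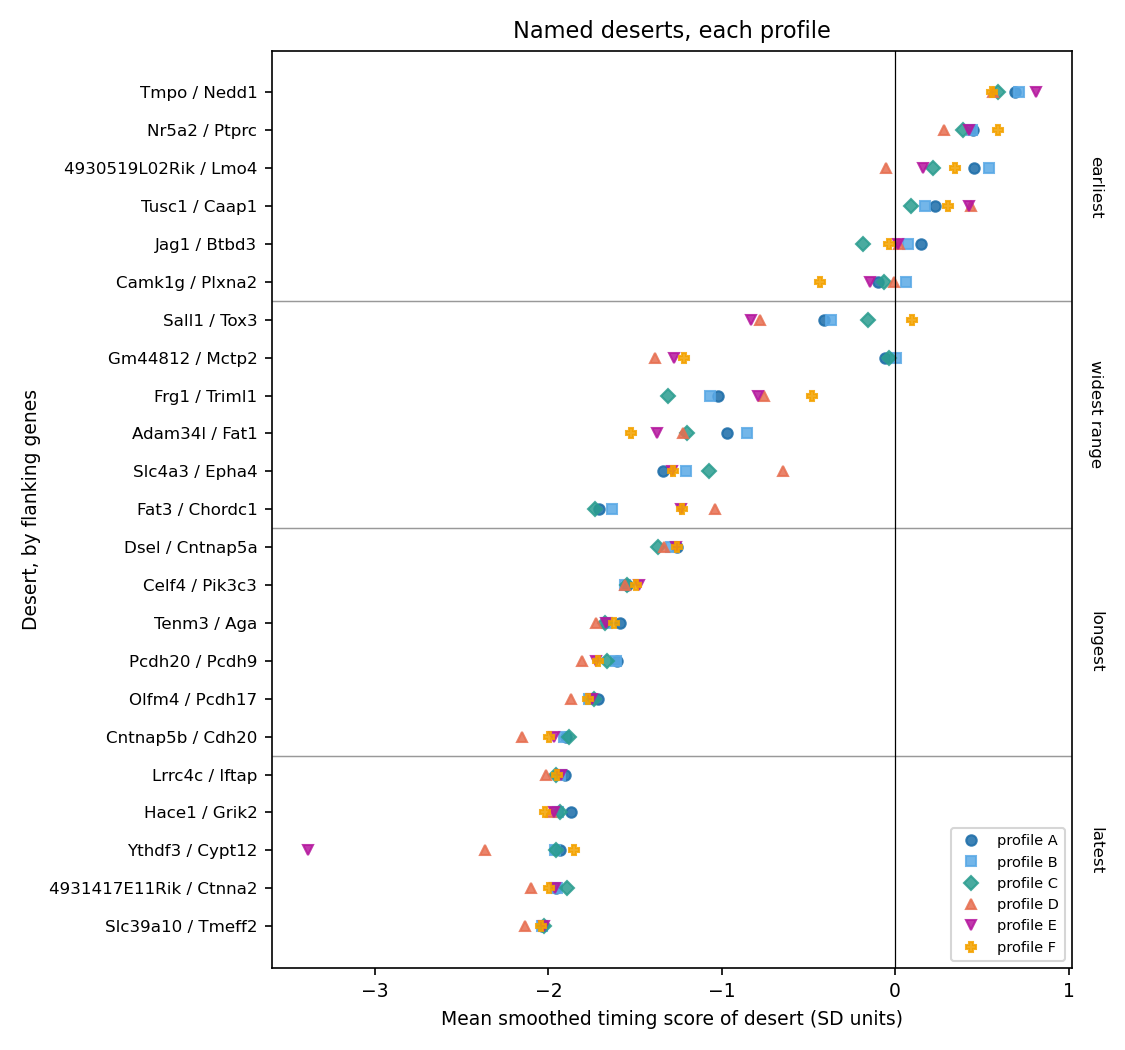
Mean smoothed timing score (SD units) of the named deserts, 1 marker for each of profiles A to F, grouped as the earliest, those with the widest range on chromosomes without shifts, the longest and the latest; a desert in more than 1 group is drawn once. The Tmpo / Nedd1 markers lie between 0.56 and 0.81, the Slc39a10 / Tmeff2 markers between -2.13 and -2.02, and the Gm44812 / Mctp2 markers form separate sets at -0.06 to 0.0046 and at -1.39 to -1.22.

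Most deserts kept their timing from profile to profile. Over the 196 deserts the median range of the 6 scores was 0.26, and the pairwise Pearson's r of desert scores had a median of 0.83 over 15 pairs (0.64 to 0.99). Over the 131 deserts on chromosomes without shifts these were 0.24 and 0.93 (0.89 to 0.99). For 100-kb autosomal bins the median range was 0.29 and the median r 0.95. On the chromosomes without shifts the bins had 0.28 and 0.98. The range of deserts was thus close to that of bins and their r was lower, so stable timing was not particular to deserts. All pairs share the same windows, and depth behind each profile is unknown. A range of at least 1 unit was found for 22 deserts (11.2%), with 5.91% of bins as background. On the chromosomes without shifts it was 1 of 131 (0.763%), close to the 0.786% of bins there.

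The variable deserts of the shifted chromosomes moved together by chromosome. The 7 on chromosome 4 had mean scores of -1.31, -1.33, -1.39, -1.25 and -1.27 in profiles A to E and 1.17 in profile F, and raw levels of 1.76 to 1.80 against 2.15. Among them were the deserts next to Klf4, a Krüppel-like factor, with 2.32 in profile F and -0.40 to -0.07 in the others, and next to Tlr4, the receptor of lipopolysaccharide, with 1.87 and -1.28 to -0.99. The desert between Lingo2 and 1700009N14Rik, at -1.97 to -1.89 in the other profiles among the latest of all, scored 0.04 in profile F. The 8 on chromosome 3 had mean scores of -1.39, -1.37, -1.42, -2.03, -2.68 and -1.28 in the order A to F, and their raw level in profile E was 1.55. A member of this set, between Snx16 and Ralyl, had values for only 80 of its 181 windows in profile E; over the windows valued in every profile the means were -1.31, -1.30, -1.36, -1.93, -2.68 and -1.20. Of the 8, 7 were farthest from the rest in profile E and 1 in profile D. The 4 on chromosome 17 scored -0.06 in profile D and -1.15 to -1.01 in the others, and the 2 on chromosome 14 scored -2.67 in profile D and -1.28 to -1.10 in the others. In each case a raw level of the whole stretch moved with the score, and whether copy number or timing differed there cannot be told apart from these values. Without profile F the variable deserts numbered 14, and without profile D 15.

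On chromosome 12 the deserts lay below the rest of their chromosome while the chromosome as a whole differed between profiles. Desert windows there scored -1.42 in profile A, -1.44 in B, -0.91 in C and 0.21 in F, and their raw level was 1.77, 1.78, 1.87 and 2.00. Over the 1173 of 1276 desert windows that all 4 profiles share, the scores were -1.45, -1.47, -1.09 and 0.11. Relative to the other windows of chromosome 12 the deserts were at -1.53, -1.56, -1.38 and -1.36. The plot of copy level by chromosome shows these departures.

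**Figure D4:**
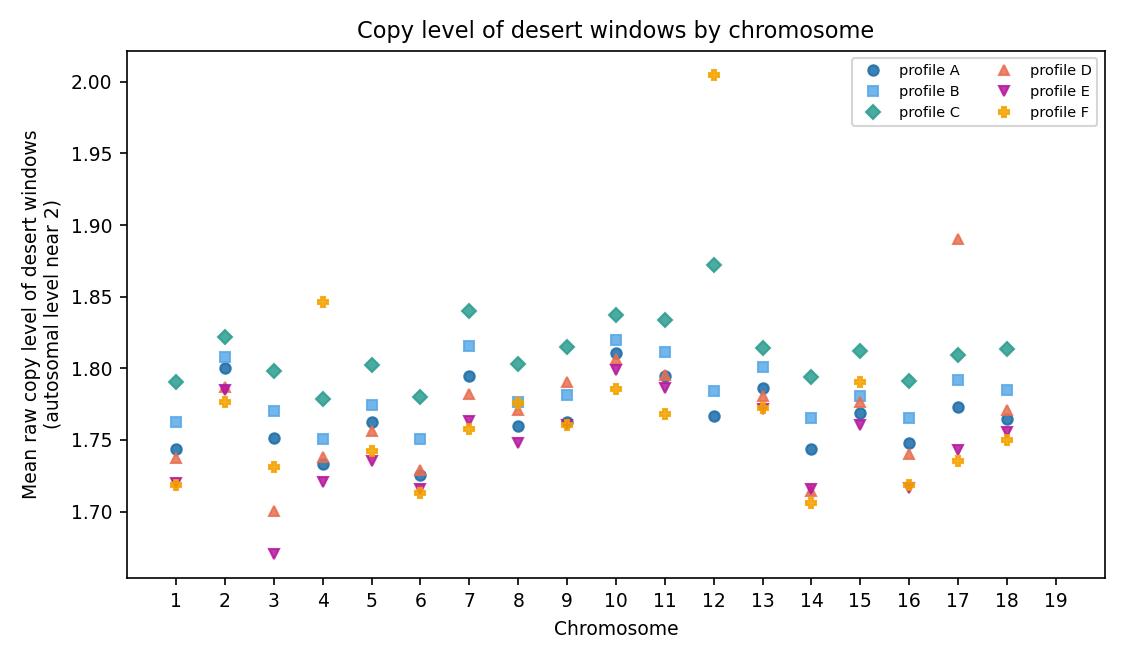
Mean raw copy level of desert windows (autosomal level near 2; the axis does not start at 0) on each autosome, 1 marker for each of profiles A to F; chromosome 19 has no value and chromosome 12 none in profiles D and E. Most markers lie between 1.70 and 1.84, with profile F at 1.85 on chromosome 4 and 2.00 on chromosome 12, profile D at 1.89 on chromosome 17 and profile E at 1.67 on chromosome 3.

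The single variable desert of the chromosomes without shifts lay between Gm44812 and Mctp2 on chromosome 7 (chr7:71088058-71581873, 493.8 kb). It scored -0.06, 0.0046 and -0.04 in profiles A, B and C and -1.39, -1.28 and -1.22 in profiles D, E and F. The raw level was 1.99, 2.01 and 1.99 in the first 3 and 1.76, 1.76 and 1.78 in the last 3. The values thus formed separate sets of 3 profiles with a gap of more than 1 unit between them, and the labels do not say which genotype each profile is. The desert held 8 long non-coding RNA genes, the second most of any desert, and Gm29328, for example, scored 0.09, 0.16, 0.10, -1.42, -1.28 and -1.20. The preceding desert on that chromosome, 603.4 kb between Arrdc4 and Nr2f2, a nuclear receptor of mesenchyme and vessels, scored between -1.25 and -1.15. It showed no such separation. The following desert, 6 windows between Mctp2 and Rgma, scored -0.56, -0.58 and -0.50 in profiles A to C. Profiles D to F were slightly above these there, at -0.46, -0.29 and -0.45.

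There were 5 further named deserts with a wide range. Between Sall1, a zinc-finger regulator of kidney development, and Tox3 on chromosome 8 the scores were -0.41, -0.37, -0.16, -0.78, -0.83 and 0.10, with profiles D and E lowest and F highest. Between Frg1 and Triml1 on chromosome 8 they were -1.02, -1.07, -1.31, -0.76, -0.79 and -0.48. Profiles D, E and F were all above A, B and C there, with F highest. The desert between the giant cadherin gene Fat3 and Chordc1 on chromosome 9 scored -1.71, -1.63, -1.73, -1.04, -1.23 and -1.23. Here too profiles D, E and F were all above A, B and C. Between Slc4a3 and the ephrin receptor gene Epha4 on chromosome 1 the scores lay between -1.34 and -1.07 except for -0.65 in profile D. Between Adam34l and Fat1 on chromosome 8 they were -0.97, -0.85, -1.20, -1.22, -1.37 and -1.53, so that A, B and C were above D, E and F, with C and D close together. These 5 ranges were between 0.67 and 0.93, below the range of 1.39 at Gm44812 and Mctp2. A split of A, B and C from D, E and F was not particular to the named deserts. Between Unc5d and Dusp26 on chromosome 8, A to C scored -1.73 to -1.65 and D to F -1.44 to -1.36. Between Usp25 and Cxadr the scores were -0.87 to -0.80 and -0.55 to -0.54. The share of all deserts that split in this way was not counted.

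**Figure D5:**
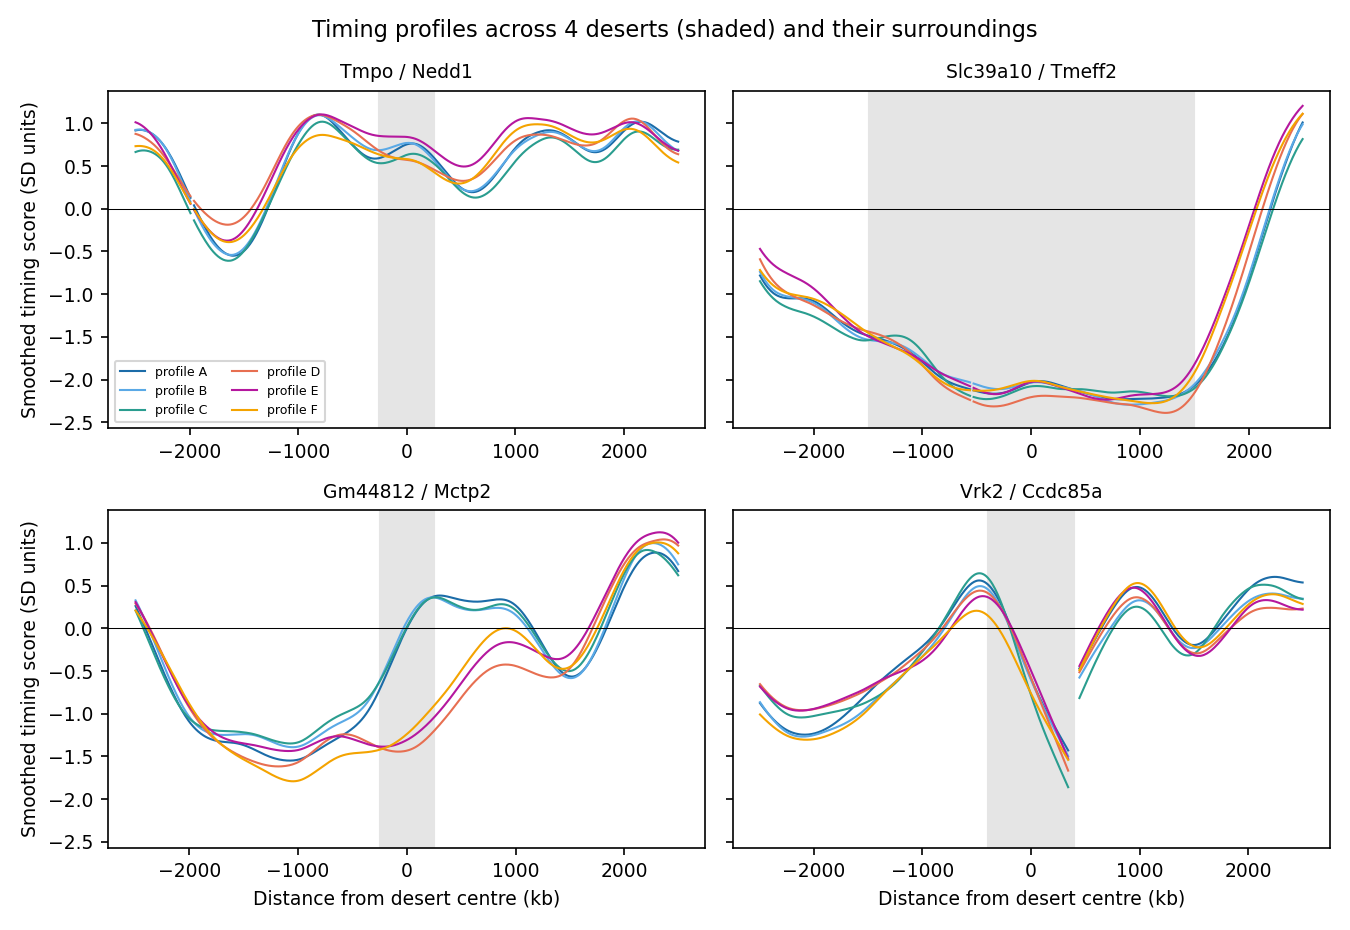
Smoothed timing score (SD units) of profiles A to F against distance in kb from the centre of 4 deserts, with the desert shaded. The profiles stay above 0 across the Tmpo / Nedd1 desert, run together near -2 across Slc39a10 / Tmeff2, separate across Gm44812 / Mctp2 and fall steadily across Vrk2 / Ccdc85a.

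Within deserts, timing peaks were few and valleys were frequent. A timing peak, a local maximum with a prominence of at least 0.25 units, marks a region that replicates before its surroundings. Deserts held 13, 13, 10, 11, 11 and 14 peaks in profiles A to F and the rest of the autosomes 765 to 849. Per megabase the peaks in deserts were 0.16 times as dense as elsewhere at the median (0.13 to 0.19). Peaks in deserts were also low, with a median score of -0.91 against 1.01 elsewhere. By profile, 30.8% to 45.5% of peaks in deserts were met in every profile, against 55.0% to 63.8% of peaks elsewhere. Valleys, the sites reached last, were denser in deserts by 1.58 times (1.46 to 1.77), and 12.05% to 14.3% of all valleys lay in a desert. No peak was found in 173 of the 196 deserts, and 5 had 1 in every profile. Those 5 had a median span of 435.1 kb, compared with 555.2 kb for deserts without a peak. Elsewhere on autosomes there were 0.39 to 0.44 peaks per Mb, so a stretch of such a span would often hold none. The share without a peak among stretches of like span outside deserts was not counted, so the 173 of 196 has no background.

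At the median, the centres of long deserts were slightly later than their edges. Among the 103 deserts with at least 50 windows, each split into 5 equal parts, the central part had a median score of -1.62 and the outermost parts -1.49. The centre was later than both outermost parts in every profile in 21 deserts and earlier than both in 0. In the other 82 neither held in every profile. The parts in between were not compared. No stretches of like length outside deserts were split in this way, so these counts have no background. The outermost parts differed from each other by 0.40 at the median. That difference was largest, 1.70, in the 784.2 kb between Vrk2 and Ccdc85a on chromosome 11, where the leftmost part scored 0.32, the centre -0.53 and the rightmost -1.39. This desert was named after its values were seen.

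Flanking genes were late for genes, and deserts were later still. Of 409 flanking genes with a score, 24.9% lay above 0 in each profile and 56.5% below 0 in each, with a median of -0.34. For all 18063 protein-coding genes with a score these were 76.4%, 15.3% and 0.82. Where both flanks were above 0 (17 deserts) the desert had a median of -0.78, and where both were below 0 (94 deserts) it had -1.56.

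Genes of neuronal adhesion and guidance took 82 of 492 flanking positions (16.7%) while forming 1.25% of protein-coding genes. They included the cadherin gene Cdh8, the slit receptor gene Robo1 and the netrin receptor gene Dcc. The 62 counted deserts with such a flank had a median score of -1.55, and the 134 without had -1.25, but the first were also longer, with a median span of 1117.8 kb against 494.0 kb. In 10 deserts both flanks were of this kind, such as the 2548.33 kb between Cdh6 and Cdh9 on chromosome 15, at -1.56 to -1.11. Between the adhesion receptor genes Adgrl2 and Adgrl4 on chromosome 3, 1453.41 kb in length, the scores were less late, at -0.73 to -0.56. Adgrl4 and Cdh5, counted in this list by their symbols, are known from endothelial cells.

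Developmental transcription factors took 25 positions (5.08%) and form 1.33% of genes. Their 19 counted deserts had a median score of -0.88, less late than the -1.39 of the 177 others, with median spans of 556.2 kb and 647.5 kb. The scores of the 19 medians ran from -1.67, between Pou3f2 and Mms22l on chromosome 4, to 0.28 beside Lmo4. Several were long and yet well above the usual score of their span, and they were picked out here after their values were seen. Zeb2, a zinc-finger repressor, and Acvr2a on chromosome 2 bounded 2689.82 kb that scored -0.60, -0.74, -0.997, -0.71, -0.54 and -0.61. Celf2 and Gata3, a T-cell factor, on chromosome 2 bounded 1455.49 kb at -1.09 to -0.52. Bcl11a, the repressor of fetal globin, and Fancl on chromosome 11 bounded 1209.91 kb at -1.09 to -0.74, and Cetn3 and Mef2c, a myocyte enhancer factor, on chromosome 13 bounded 704.6 kb at -0.82 to -0.37. By contrast the deserts beside the neural factors Pou3f3, Pou3f2 and Nr2f1 had medians of -1.46, -1.67 and -1.48. Lmo7, counted in this list by its symbol, is not a transcription factor.

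Channels and receptors took 19 positions (3.86%, against 1.24% of genes), and their 17 counted deserts had a median of -1.45. Trps1 was counted there by its symbol and is not a channel. Olfactory and vomeronasal receptors, though 7.15% of genes, took 1 position, at Olfr161. Beside Myc, whose distant enhancers lie in the gap that follows it, the desert up to Gsdmc on chromosome 15 (chr15:62486730-63275783) scored -0.34, -0.44, -0.56, -0.40, -0.26 and -0.06, and it too was chosen after its values were seen. Each profile was below 0 but above the median of its span class.

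Non-coding RNA genes and pseudogenes were sparser in deserts than elsewhere. There were 299 long non-coding RNA genes in 142 deserts, or 1.48 per Mb compared with 5.54 elsewhere, 21 microRNA genes in 12 deserts (0.104 and 0.510 per Mb), and 457 pseudogenes (2.27 and 3.85 per Mb). Desert windows over a long non-coding RNA gene had a mean score of -1.24 (-1.24 to -1.07) and those over none -1.46 (-1.48 to -1.31). The windows over such genes were less late in each profile. Deserts with and without a long non-coding RNA gene had medians of -1.37 and -1.35, with spans of 797.7 kb and 428.4 kb.

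Variable segments of antigen receptors were denser in deserts, at 1.53 per Mb against 0.109 elsewhere, and filled 3 deserts with 309 segments. The rule counted only genes annotated as protein-coding, so such segments did not end a desert. The desert between Gm36448 and Dad1 on chromosome 14, with 73 segments of the T-cell receptor alpha locus, scored between -0.95 and -0.58. The desert between Adam6a and Zfp386 on chromosome 12, with 115 segments of the heavy chain locus, had values for 52 of its 132 windows in profiles A and B, 123 in C and 98 in F. Over the 35 windows that these 4 share it scored -1.47, -1.39, 0.22 and 1.10, with raw levels of 1.73, 1.76, 1.92 and 2.15. Profiles C and F were also the highest over all deserts of that chromosome. Over each profile's own windows the scores were -0.67, -0.62, 1.13 and 1.77, and since those windows differ they were not compared. These deserts were chosen by their content with earlier results known.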

How the data were processed

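Whole-genome sequencing depth was measured in 6 libraries of myeloid lines. The authors deposited a table of normalised DNA copy levels per window (raw level) and a table of smoothed timing scores, each with 6 unnamed value columns, none of which was left unused. Per the submitters' processing notes, coordinates are mm10 and the tools included Picard 2.23.9; the title of the series names TIGER. How reads were aligned, corrected for GC, filtered and smoothed is not given in the sources used here. Depth per library is unknown, and no interval for counting error can be given.

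Windows were at least 10000 bp long. Each was placed by its midpoint against 20665 autosomal protein-coding genes of RefSeq (GRCm38.p6), and consecutive member windows were joined. Values were averaged with Python 3.11.15, pandas 2.3.3 and scipy 1.17.1. Backgrounds are 100-kb bins with at least 3 valued windows. Flanking genes were counted by symbol prefix. Deserts named by rule were the 8 longest, the 6 earliest, the 6 latest and the 6 with the widest range on chromosomes without shifts. Some items selected by these rules are not reported here. The members and lists were chosen with earlier results of these data known. The exact permutation tests between genotypes could not be run because no column names a sample, and the GC content of deserts was not analysed here because no genome was used. Joining, distances and peak finding were checked on simulated data. Alternatives covered the distance limit, the gene set, the chromosomes, joining, the minimum size, peak prominence, the raw level and leaving out each profile.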

Additional observations from a re-analysis of the deposited data

How the results depend on the processing

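Under the alternatives run, the main values kept their direction, but their size followed the definition of a desert. With a limit of 250 kb there were 583 deserts, with a mean score of -1.15, a copy difference of -0.194, 341 late in every profile, 38 variable and a rho of -0.49 between span and score. With 1000 kb there were 71, with -1.65, -0.249, 59 late, 3 variable, a rho of -0.084 and a peak density ratio of 0.251. Measured from any annotated gene there were 11, with -1.73, -0.255, 9 late, 1 variable, a rho of -0.10 and a ratio of 0. On chromosomes without shifts, chromosome 19 included, there were 154, of which 1 was variable, with a rho of -0.51. On the rescaled raw level the mean was -1.07 and the rho -0.51. With at least 30 windows the rho was -0.47, and with a prominence of 0.5 the peak ratio was 0.104. Leaving out each profile in turn gave a mean score of -1.45 to -1.43, a copy difference of -0.224 to -0.220, 177 to 185 late deserts, a rho of -0.54 to -0.53, a peak ratio of 0.152 to 0.164 and 14 to 22 variable deserts, with 14 when profile F was left out. Among the 24 named deserts, 2 changed sign on the rescaled raw level: Jag1 to Btbd3 at -0.076 and Tusc1 to Caap1 at -0.30. The cause was not tested. Alternatives chosen after seeing the data were those for named deserts, the omission of deserts with V segments, which left 175 of 194 late, and means over windows valued in every profile, with which 177 of 196 were late and 22 variable.

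No paired analysis was possible because the value columns carry no replicate number or sample name. The GC content alternatives were not run. Library depth is unknown, so the spread between profiles is the only error given.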

Other observations

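Deserts of the X chromosome lay outside the rule. By the same distance limit, 1047 X windows in 21 deserts had a mean raw level of 0.88, 0.89, 0.89, 0.88, 0.87 and 0.88 in profiles A to F, which was 92.5% to 93.8% of the level of other X windows (median 92.9%). Their score lay below that of other X windows by a median difference of -0.45, with a range of -0.48 to -0.44. On autosomes the corresponding copy level was 88.8% at the median. The score was scaled on autosomes, whose raw level lay near 2, while other X windows had raw levels of 0.94 to 0.95. The size of the X score difference is therefore not comparable with the autosomal one, which had a median of -1.57.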
